A study of Rattus norvegicus with 7 samples.

Results

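Hippo signalling restrains growth through a cascade of protein kinases. In mammals the kinases MST1 and MST2, held by the scaffold SAV1, activate the kinases LATS1 and LATS2, which work with the adaptor MOB1. Active LATS kinases phosphorylate the transcriptional coactivators YAP and TAZ and keep them out of the nucleus, and in mice the removal of Sav1 or of both Lats genes from the heart lets heart muscle cells divide more. NDR1 and NDR2 are the kinases most closely related to LATS and also bind MOB1.

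The genes described here are 10 of the 17141 genes in the series table, matched by symbol. They are Stk4 (MST1), Stk3 (MST2), Sav1, Mob1a, Lats1, Lats2, Stk38 (NDR1), Stk38l (NDR2), and the upstream scaffold genes Nf2 (merlin) and Wwc2 (a relative of KIBRA). They were picked from the pathway with earlier results of these libraries known, including a low Stk38l after every miRNA and a low Lats2 after the miRNAs with the seed of miR-302 and miR-373, so the values below describe these libraries and test nothing. All 10 passed a minimum mean of 1 RPKM (read numbers divided by gene length and library size), as did 12330 genes in all.

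The study looked for pathways shared by microRNAs (miRNAs) that make cardiomyocytes proliferate. Ventricular cardiomyocytes of wild type Wistar rats at postnatal day 0 were transfected with 25 nM of a synthetic miRNA, using a lipid reagent, and RNA was taken 72 h later for mRNA libraries. The 6 tested libraries received a human miRNA: miR-373-3p or miR-302d-3p, which share a seed, or else miR-199a-3p, miR-590-3p, miR-1825 or miR-33b*. The remaining library received cel-miR-67, a nematode miRNA that the headers of the deposited tables use as the denominator of every ratio and that serves as the control here, although the labels do not call it one. Each miRNA has 1 library, so no difference below has a replicate check and no p-value is given. The cells were those that did not attach to plastic, described in the labels as mostly cardiomyocytes, so other cells remain possible.

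Reads in the listed genes numbered 22616067 to 31963293 per library. Cardiomyocyte markers dominated: the 12 written for this check summed to 17398 to 22712 RPKM in the 6 miRNA libraries and 23554 RPKM in the cel-miR-67 library. The 10 fibroblast markers summed to 565 to 817 RPKM after the 6 miRNAs and 852 RPKM after cel-miR-67. The 6 endothelial markers found in the table, of 7 written, summed to 6.02 to 8.82 RPKM against 9.76 RPKM. The 4 epicardial markers summed to 12.8 to 18.7 RPKM against 19.6 RPKM, and the 6 macrophage and leukocyte markers to 9.06 to 12.10 RPKM against 12.08 RPKM, with miR-373-3p alone above the control. The 4 smooth muscle markers summed to 756 to 1157 RPKM against 745 RPKM, but did not move together. Cnn1 was at 151 to 298 RPKM against 88.8 RPKM, while Myh11 was below its control level of 13.8 RPKM in 5 of the 6 libraries, Acta2 below 164 RPKM in 3, and Tagln below 478 RPKM in 2, those of miR-302d-3p (399 RPKM) and miR-373-3p (427 RPKM). None of these markers was at 0 in any library. In bulk RNA, fewer cells of a type and less RNA per cell cannot be told apart.

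A miRNA lowers its targets mainly through pairing of its seed, bases 2 to 8, with the target mRNA. Of the transfected miRNAs, the rat miRNA table of RefSeq used here (build GRCr8) holds miR-199a-3p by name. It also holds miR-291a-3p, a rat miRNA with the seed that defines the family of miR-302 and miR-373. These are shown because the lowest Stk38l value followed miR-199a-3p and the lowest Lats2 values were in the seed pair, the libraries of miR-302d-3p and of miR-373-3p. Capitals mark the seed. No mRNA was searched for sites of these seeds, so pairing with Stk38l or Lats2 was not tested. Of the rat mature miRNAs in that table, 1 has the first seed and 2 have the second.
rno-miR-199a-3p: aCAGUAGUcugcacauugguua
rno-miR-291a-3p: aAAGUGCUuccacuuugugugcc

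In the cel-miR-67 library the order of the 10 genes by RPKM, a level per length, ran from Stk38l at 45.3 RPKM, through Mob1a at 23.8, Lats2 at 17.2, Sav1 at 14.95 and Stk3 at 10.7 RPKM, to Wwc2 at 9.21, Stk4 at 8.75, Stk38 at 8.49, Nf2 at 8.47 and Lats1 at 6.83 RPKM. Exact 95% Poisson intervals, which cover counting error only, overlapped for Wwc2 (8.74 to 9.70 RPKM), Stk4 (8.23 to 9.30), Stk38 (7.57 to 9.49) and Nf2 (7.92 to 9.06), so these neighbours are not ordered at this depth. The NDR2 gene was thus the most abundant of the set per length in the control. It remained the highest of the 10 in 5 of the 7 libraries, and Mob1a was the highest in the other 2, those of miR-373-3p and miR-199a-3p.

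**Figure D1:**
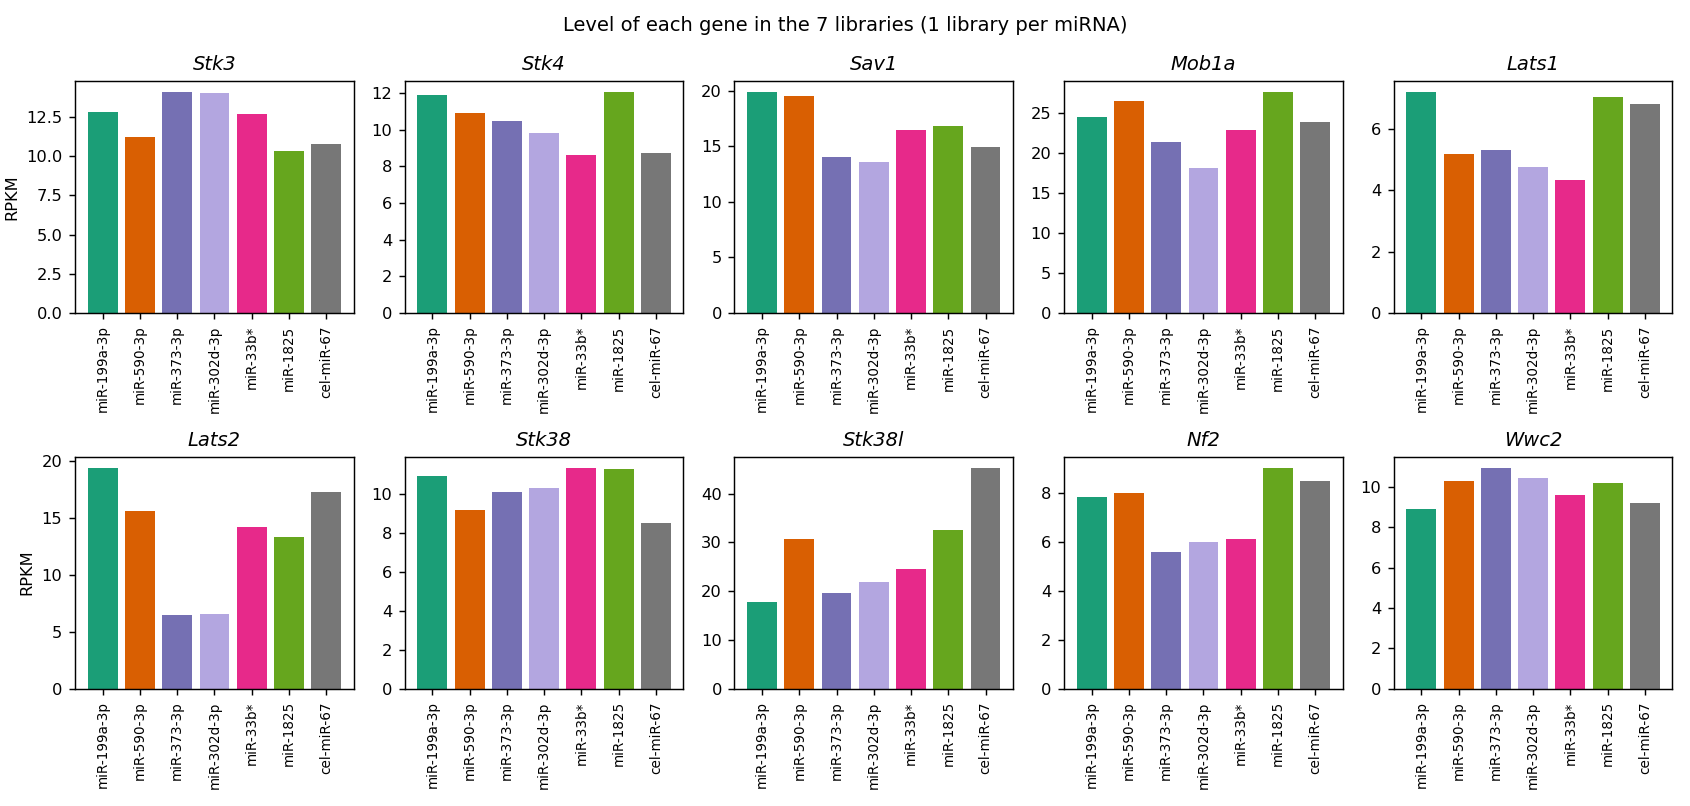
RPKM of each of the 10 genes (vertical axes, starting at 0 and scaled per gene) in the 6 miRNA libraries and, at the right, the cel-miR-67 library; each bar is 1 library. Stk38l is highest in the cel-miR-67 library at 45.3 RPKM, and Lats2 is at 6.58 RPKM with miR-302d-3p and 6.49 RPKM with miR-373-3p.

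Differences on the log2 scale compare RPKM + 1 in a miRNA library with RPKM + 1 in the control, a pseudocount that shrinks differences of low genes. They are given beside ratios of read rates, which have no pseudocount. The ratios carry exact (Clopper-Pearson) 95% intervals from the whole reads behind the values, 308 to 5759 per gene and library for these genes. The intervals compare libraries and leave out differences between cultures. All 6 comparisons use the same control library. When values were scaled to all listed reads instead of the sizes behind the deposited RPKM, the median log2 difference of all genes moved to between 0.01 and 0.31, and 8 of the 60 member values changed sign, none of them of Stk38l, Stk38, Lats1 or Lats2.

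At a limit of 1.5-fold, 6 of the 60 pairs of a member and a library were lower and 0 were higher. Over all genes 5.79% of such pairs were lower and 5.09% higher. Stk38l gave 4 of the 6 lower pairs and Lats2 the other 2. The other 8 genes stayed between -0.55 and 0.42 on the log2 scale in all 48 of their pairs, 17 of them below 0 and 31 above. Per library, 48.0% to 50.5% of all genes were below 0. Per library, the members at least 1.5-fold lower numbered 1 of 10 after miR-199a-3p, where 5.55% of all genes were that low, and 0 after miR-590-3p (3.49% of genes). In the seed pair they numbered 2 each (7.32% of genes with miR-302d-3p, 6.56% with miR-373-3p). After miR-33b* there was 1 (5.52% of genes), and after miR-1825 there were 0 (6.33% of genes). No member was 1.5-fold higher in any of the 6 libraries, where 5.94% (miR-1825), 5.17% (miR-33b*), 5.11% (miR-302d-3p), 4.83% (miR-373-3p), 4.81% (miR-199a-3p) and 4.7% (miR-590-3p) of genes were.

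The median log2 difference over the 10 genes was lowest in the seed pair, at -0.25 with miR-302d-3p and -0.12 with miR-373-3p, and was -0.04 with miR-33b*, 0.08 with miR-590-3p and 0.11 with each of miR-1825 and miR-199a-3p. Over all genes the medians lay between -0.0034 and 0.015. Scaled to all listed reads, the median of the 10 genes turned to 0.07 with miR-373-3p and with miR-33b*, and was -0.02 with miR-302d-3p. In each library of the seed pair 6 of the 10 genes were below 0, and so were 6 with miR-33b*.

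**Figure D2:**
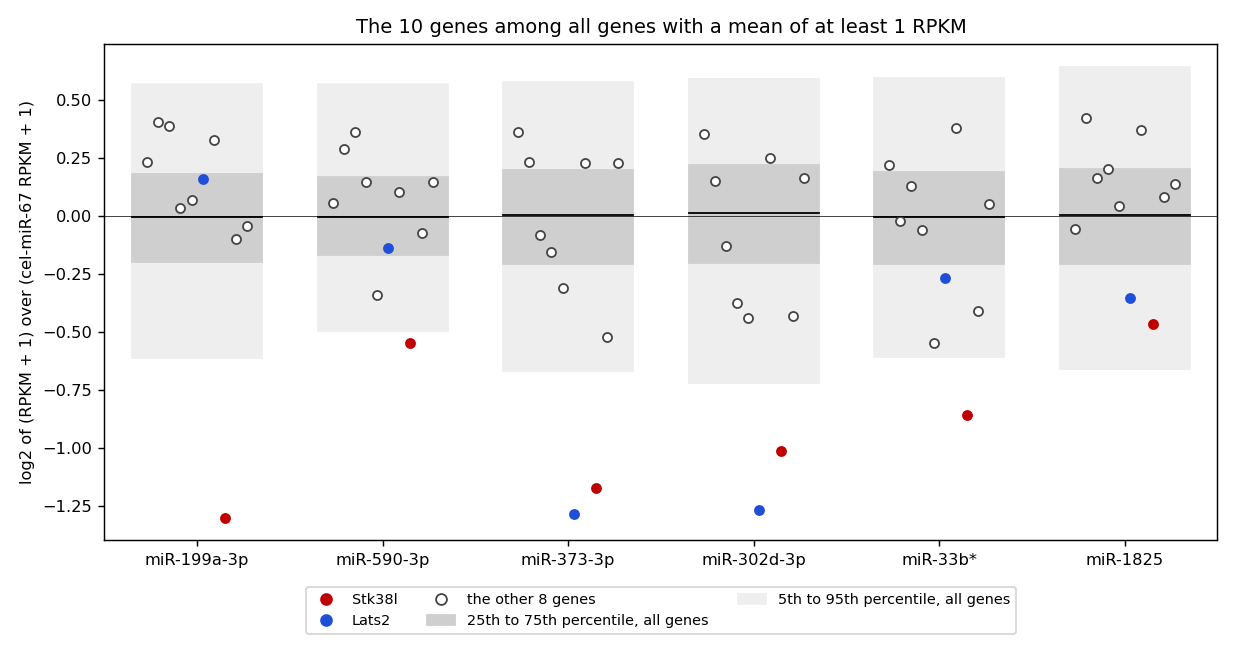
Log2 difference from the cel-miR-67 library (vertical axis) of the 10 genes in each miRNA library, drawn over the 25th to 75th (dark grey) and 5th to 95th (light grey) percentiles of the 12330 genes that passed the minimum of 1 RPKM; the black line is their median. Stk38l lies below the light band in 5 libraries, all but miR-1825, and Lats2 in those of miR-302d-3p and miR-373-3p.

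Stk38l, which encodes the kinase NDR2, was the member with the widest reach of low values. It was at 17.8 RPKM after miR-199a-3p, 30.7 RPKM after miR-590-3p, 19.6 RPKM after miR-373-3p, 22.0 RPKM after miR-302d-3p, 24.6 RPKM after miR-33b* and 32.5 RPKM after miR-1825, against 45.3 RPKM after cel-miR-67. Every miRNA library was below the control, and the miRNA libraries themselves differed by as much as 32.5 against 17.8 RPKM. The ratio of read rates was lowest after miR-199a-3p, at 0.393 (interval 0.375 to 0.411), followed by miR-373-3p at 0.431 (0.413 to 0.450) and miR-302d-3p at 0.484 (0.465 to 0.504). It was 0.542 (0.519 to 0.567) with miR-33b*, 0.677 (0.650 to 0.704) after miR-590-3p and 0.718 (0.691 to 0.746) after miR-1825. None of these intervals reached 1.

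On the log2 scale the differences of Stk38l were -1.30, -0.55, -1.17, -1.01, -0.86 and -0.47 in the order of the levels above. After miR-199a-3p only 0.641% of genes were at or below its value, and after miR-1825 9.56% were. A share of 13.4% of all genes lay below the control in all 6 libraries, whatever the size, and 2.26% were at least 1.5-fold lower in 4 or more libraries, as Stk38l was. Cardiomyocyte, fibroblast, endothelial and epicardial marker sums were also below the control in all 6 libraries, though single markers differed in direction. The macrophage and leukocyte sum was below it in all but the library of miR-373-3p. The smooth muscle sum was above it in all 6 (756 to 1157 RPKM against 745 RPKM). Marker sums were compared only as deposited RPKM, without the other scalings. The part of these cell types in the low Stk38l was not tested. With the mean log2 value of the other 5 miRNA libraries in place of cel-miR-67, a reference against which the 6 values of a gene sum to 0, Stk38l ranged from -0.49 to 0.51; by construction, no gene can be below that reference in all 6 libraries.

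**Figure D3:**
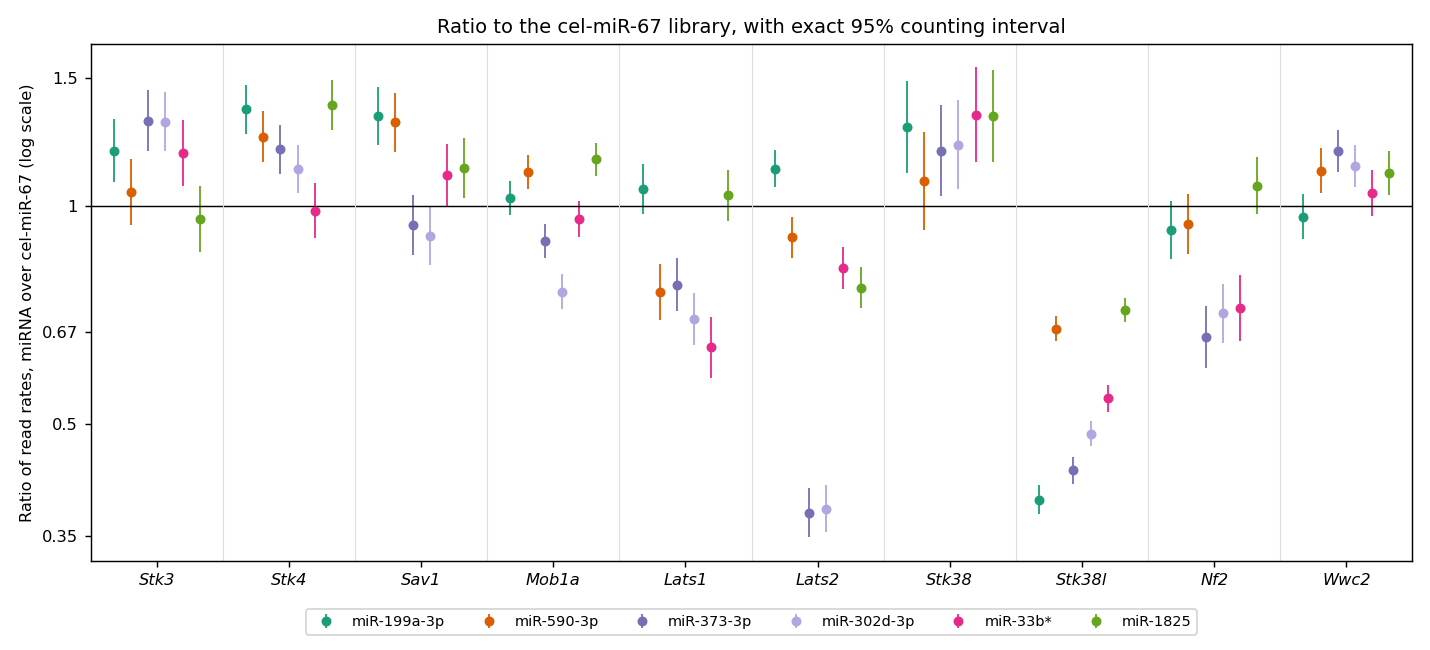
Ratio of read rates of each miRNA library over the cel-miR-67 library (vertical axis, log scale) for the 10 genes, with exact 95% intervals that cover counting error only. The 6 points of Stk38l lie between 0.393 and 0.718, those of Lats2 split between 0.377 and 0.382 for the seed pair and 0.770 to 1.12 for the others, and the points of Stk38 all lie above 1.

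Stk38 encodes NDR1, the paralogue of NDR2. Unlike Stk38l, it was above the control in all 6 libraries. It was at 10.9 RPKM after miR-199a-3p, 9.19 RPKM after miR-590-3p, 10.1 RPKM after miR-373-3p, 10.3 RPKM after miR-302d-3p, 11.3 RPKM after miR-33b* and 11.3 RPKM after miR-1825, against 8.49 RPKM after cel-miR-67. The control was the lowest of the 7 libraries, although 13.9% of all genes lay above the control in all 6. The differences were 0.10 to 0.38 on the log2 scale, and the interval of the ratio after miR-590-3p (0.927 to 1.26) included 1. The opposite directions rest on the shared control library, which held 308 reads of Stk38. Among the miRNA libraries the paralogues did not mirror each other throughout. That of miR-1825 had the highest Stk38l and nearly the highest Stk38, while that of miR-590-3p had the next highest Stk38l and the lowest Stk38.

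The ratio between these paralogues within a library does not depend on how the libraries were scaled to each other. Stk38l stood at 1.63 times the Stk38 RPKM with miR-199a-3p, 1.93 times with miR-373-3p, 2.13 times with miR-302d-3p, 2.17 times with miR-33b*, 2.88 times with miR-1825 and 3.34 times with miR-590-3p, against 5.34 times with cel-miR-67. The NDR2 transcript made up 62.0% to 77.0% of the summed RPKM of the pair in the miRNA libraries and 84.2% in the control. Relative to the control, the ratio was 0.306 after miR-199a-3p (exact 95% interval 0.262 to 0.356) and 0.625 after miR-590-3p (0.532 to 0.734), with the others in between. The summed RPKM of both genes was between 28.7 (miR-199a-3p) and 43.8 (miR-1825) in the miRNA libraries, against 53.8 RPKM after cel-miR-67.

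The promoters of these paralogues are shown because their transcripts stood on opposite sides of the control in all 6 libraries. Each window covers 250 bases before to 50 bases after the gene start in RefSeq, build GRCr8, read 5′ to 3′ on the gene's strand; that of Stk38l is chr4:181364701-181365000 on the plus strand and that of Stk38 is chr20:7069390-7069689 on the minus strand. Capitals mark TGACGTCA, the palindromic cyclic AMP response element, which was searched for after the sequences had been seen. It is in 1.83% of the 33469 promoters of the table and in 1 of the 8 member promoters found there, that of Stk38l, where it begins 138 bases before the start.
Stk38l: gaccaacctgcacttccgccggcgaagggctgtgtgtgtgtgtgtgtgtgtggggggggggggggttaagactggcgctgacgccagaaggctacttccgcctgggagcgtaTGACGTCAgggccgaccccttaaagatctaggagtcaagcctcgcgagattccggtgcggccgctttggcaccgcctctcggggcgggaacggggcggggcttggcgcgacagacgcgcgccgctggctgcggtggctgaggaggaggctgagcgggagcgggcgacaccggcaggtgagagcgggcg
Stk38: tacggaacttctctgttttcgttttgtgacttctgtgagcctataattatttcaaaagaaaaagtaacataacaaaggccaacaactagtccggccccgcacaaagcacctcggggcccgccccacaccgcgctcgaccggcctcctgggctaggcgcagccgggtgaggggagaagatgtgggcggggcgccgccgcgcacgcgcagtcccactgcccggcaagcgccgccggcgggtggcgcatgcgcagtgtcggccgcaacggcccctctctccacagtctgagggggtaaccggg
GGAATG, the core letters bound by the TEAD factors, was searched on both strands as well. It is in 14.2% of all promoters and in those of Sav1 and Wwc2 among the 8. These matches describe letters and not binding sites.

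Lats2 encodes the LATS kinase that is itself a known YAP target in mammals. It was at 6.49 RPKM (miR-373-3p) and 6.58 RPKM (miR-302d-3p) in the seed pair, and at 19.4 RPKM after miR-199a-3p, 15.6 RPKM after miR-590-3p, 14.2 RPKM after miR-33b* and 13.3 RPKM after miR-1825, against 17.2 RPKM after cel-miR-67. The libraries of the shared seed were far below the remaining 5. They were less than 1.5-fold apart from each other, which is not particular to Lats2: only 2.4% of all genes differed at least 1.5-fold between them. The ratios of Lats2 read rates to the control were 0.377 (interval 0.349 to 0.407) and 0.382 (0.354 to 0.411) in the seed pair. Next came miR-1825 at 0.770 (0.722 to 0.822) and miR-33b* at 0.821 (0.768 to 0.878). The ratio was 0.904 (0.848 to 0.964) after miR-590-3p and 1.12 (1.06 to 1.19) after miR-199a-3p, the highest of the 7 libraries.

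The log2 differences of Lats2 were -1.27 with miR-302d-3p and -1.28 with miR-373-3p, and 1.18% and 0.770% of genes were at or below them. In the other 4 libraries they lay between -0.35 and 0.16. Of all genes, 4.79% were at least 1.5-fold lower in both libraries of the seed pair, and 1.78% were so in both and in none of the other 4, which is the pattern of Lats2.

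Lats1 encodes the other LATS kinase and was the least abundant member. It was at 7.21 RPKM after miR-199a-3p, 5.19 RPKM after miR-590-3p, 5.32 RPKM after miR-373-3p, 4.77 RPKM after miR-302d-3p, 4.36 RPKM after miR-33b* and 7.06 RPKM after miR-1825, against 6.83 RPKM after cel-miR-67. The lowest value followed miR-33b*, at a ratio of 0.638 (interval 0.579 to 0.702), and the libraries of miR-199a-3p and miR-1825 had intervals that included 1. Lats1 was thus low in 4 libraries, those of the seed pair among them, with log2 differences of -0.55 to -0.31. None of these passed the limit at the pseudocount of 1 RPKM, but with 0.1 RPKM the value after miR-33b* was -0.64 and did.

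Within libraries, Lats2 stood at 1.22 times the Lats1 RPKM with miR-373-3p and 1.38 times with miR-302d-3p, against 2.52 times after cel-miR-67. The ratio was 1.88 with miR-1825, 2.69 with miR-199a-3p, 3.00 with miR-590-3p and 3.25 with miR-33b*. Relative to the control it was 0.484 (interval 0.432 to 0.543) and 0.547 (0.489 to 0.611) in the seed pair, with 0.745 (0.672 to 0.827) after miR-1825, 1.19 (1.07 to 1.33) after miR-590-3p and 1.29 (1.15 to 1.45) after miR-33b*. In these single libraries the ratio thus leaned towards Lats1 in the seed pair and with miR-1825, and towards Lats2 after miR-33b* and miR-590-3p. The intervals cover counting error only, so differences between cultures may contribute to these ratios. The summed RPKM of both LATS genes was 11.4 (miR-302d-3p) and 11.8 (miR-373-3p) in the seed pair, against 24.1 RPKM after cel-miR-67. The other 4 libraries lay between 18.5 RPKM (miR-33b*) and 26.6 RPKM (miR-199a-3p).

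**Figure D4:**
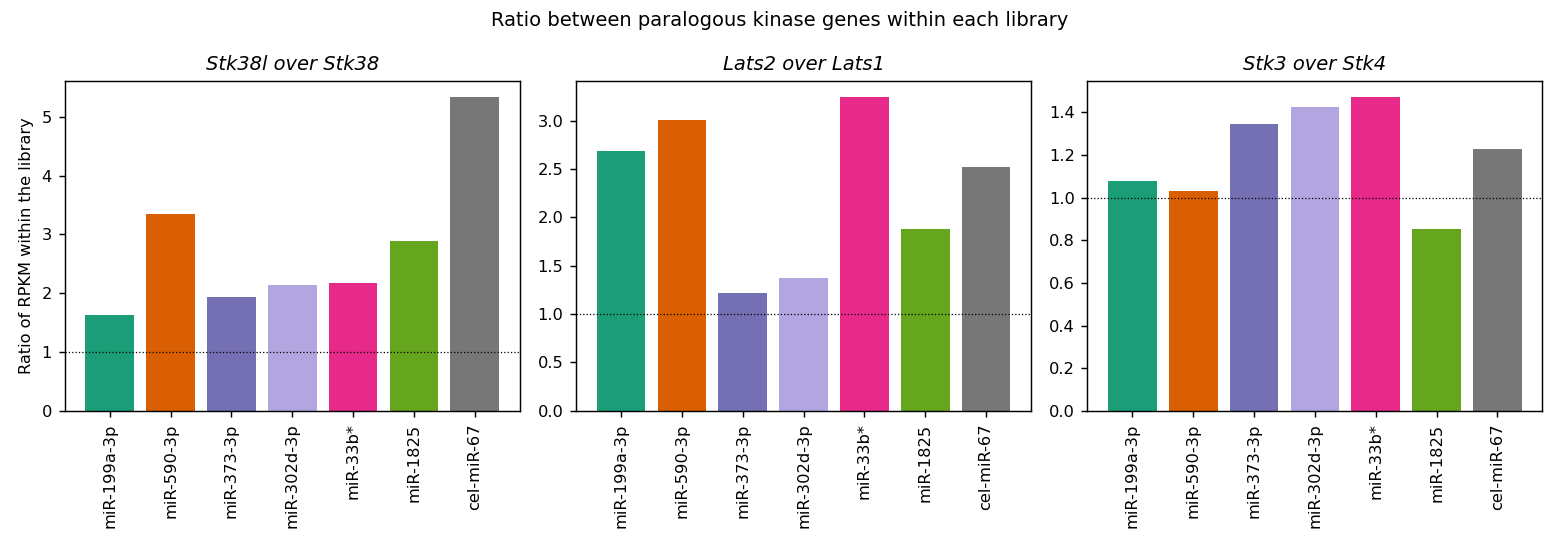
Ratio of RPKM between paralogous kinase genes within each library (vertical axes, starting at 0; the dotted line marks equal RPKM), with the cel-miR-67 library at the right of each panel. Stk38l over Stk38 is 1.63 to 3.34 in the miRNA libraries and 5.34 in the control, Lats2 over Lats1 is lowest in the seed pair, and Stk3 over Stk4 is between 0.855 and 1.47 in all 7 libraries.

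Stk3 and Stk4 encode MST2 and MST1, the kinases at the head of the cascade, and stayed within 1.5-fold of the control in all 6 libraries. Stk3 was at 12.8 RPKM after miR-199a-3p, 11.2 RPKM after miR-590-3p, 14.1 RPKM after miR-373-3p, 14.0 RPKM after miR-302d-3p, 12.7 RPKM after miR-33b* and 10.3 RPKM after miR-1825, against 10.7 RPKM after cel-miR-67. Its ratio was highest in the seed pair, at 1.31 in each library (intervals 1.19 to 1.44 and 1.19 to 1.43), and the intervals of miR-590-3p and miR-1825 included 1. Stk4 was at 11.9 RPKM after miR-199a-3p, 10.9 RPKM after miR-590-3p, 10.5 RPKM after miR-373-3p, 9.84 RPKM after miR-302d-3p, 8.62 RPKM after miR-33b* and 12.1 RPKM after miR-1825, against 8.75 RPKM after cel-miR-67. Its highest ratios followed miR-1825 (1.38, interval 1.27 to 1.49) and then miR-199a-3p (1.36, 1.26 to 1.47).

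The MST genes thus had their high values in different libraries. Stk3 stood at 0.855 times the Stk4 RPKM after miR-1825, the only library with less Stk3 than Stk4, and at 1.47 times after miR-33b*, against 1.23 times after cel-miR-67. Relative to the control the ratio was 0.697 (interval 0.611 to 0.795) and 1.20 (1.05 to 1.38) in these libraries.

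Sav1 encodes the scaffold that joins MST to LATS kinases. It was at 19.9 RPKM after miR-199a-3p, 19.5 RPKM after miR-590-3p, 14.1 RPKM after miR-373-3p, 13.6 RPKM after miR-302d-3p, 16.5 RPKM after miR-33b* and 16.9 RPKM after miR-1825, against 14.95 RPKM after cel-miR-67. The seed pair alone was below the control, though its log2 differences were positive (0.10 and 0.11) when scaled to all listed reads, and the highest ratios were 1.33 (interval 1.22 to 1.46) and 1.30 (1.19 to 1.43), after miR-199a-3p and miR-590-3p. Mob1a encodes the adaptor that LATS and NDR kinases bind. It was at 24.5 RPKM after miR-199a-3p, 26.5 RPKM after miR-590-3p, 21.3 RPKM after miR-373-3p, 18.1 RPKM after miR-302d-3p, 22.8 RPKM after miR-33b* and 27.6 RPKM after miR-1825, against 23.8 RPKM after cel-miR-67. Its lowest ratio was 0.761 (interval 0.720 to 0.804), after miR-302d-3p.

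The RefSeq gene table lists pseudogenes named Sav1-ps1 and Mob1a-ps1. How reads shared with such copies were counted is not given in the sources used here, so the levels of Sav1 and Mob1a are uncertain to that extent.

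Nf2 encodes merlin, a membrane-associated tumour suppressor that brings LATS kinases to the cell membrane. It was at 7.84 RPKM after miR-199a-3p, 7.996 RPKM after miR-590-3p, 5.59 RPKM after miR-373-3p, 6.02 RPKM after miR-302d-3p, 6.13 RPKM after miR-33b* and 9.04 RPKM after miR-1825, against 8.47 RPKM after cel-miR-67. The values split into a low set of 3 libraries and a high set of 4 that held the control. Ratios in the low set were 0.660 (interval 0.598 to 0.728) after miR-373-3p, 0.710 (0.647 to 0.780) after miR-302d-3p and 0.723 (0.651 to 0.803) after miR-33b*. On the log2 scale all were short of the limit, except that miR-373-3p passed it, at -0.59, with a pseudocount of 0.1 RPKM. In the other miRNA libraries the intervals included 1. Lats1 had its lowest values in these same 3 libraries and in that of miR-590-3p.

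Wwc2 encodes a scaffold of the family of KIBRA, which promotes LATS activity, and was the steadiest member. It was at 8.90 RPKM after miR-199a-3p, 10.3 RPKM after miR-590-3p, 10.96 RPKM after miR-373-3p, 10.5 RPKM after miR-302d-3p, 9.59 RPKM after miR-33b* and 10.2 RPKM after miR-1825, against 9.21 RPKM after cel-miR-67. Its highest level was 1.23 times its lowest, against 2.99 times for Lats2 and 2.55 times for Stk38l.

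The seed pair of libraries comes nearest to a repeat in this design, though they are different miRNAs. The members' log2 differences between them, miR-373-3p over miR-302d-3p, ran from -0.16 for Stk38l to 0.22 for Mob1a. The SD of this difference across the 6732 genes with a mean of 5 to 50 RPKM was 0.18, and 2.4% of all genes differed at least 1.5-fold between these libraries. Against the cel-miR-67 library, the SD across the same genes was 0.33 to 0.42. The differences of Stk38l and Lats2 from the control in the seed pair lay between -1.28 and -1.01. The libraries of the pair differed by -0.16 for Stk38l and -0.02 for Lats2. The pair cannot check these differences, because the genes were picked with them known. Both libraries are also set against the same control library, whose own error the pair does not show. In the seed pair the differences of the other 8 genes from the control ran from -0.52 for Nf2 to 0.36 for Stk3, both with miR-373-3p.

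The 3 genes with log2 differences nearest to those of Stk38l and of Lats2 were picked out. Any gene has nearest genes, and no distance typical of other genes was computed, so the distances below have no scale. Likeness was the root mean square distance between the 6 log2 differences, over the 7845 genes that averaged 5 RPKM or more. Nearest to Stk38l were AC120291.3 (distance 0.21), Hbegf, a growth factor gene of the EGF family (0.22), and Apol9a, an apolipoprotein L gene (0.24). Hbegf was at 11.98 RPKM after miR-199a-3p, 18.9 RPKM after miR-590-3p, 14.97 RPKM in each library of the seed pair, 12.5 RPKM after miR-33b* and 21.4 RPKM after miR-1825, against 32.8 RPKM after cel-miR-67. Nearest to Lats2 were Nrbp2, a pseudokinase gene (0.10), Serpinf1, which encodes a secreted serpin (0.12), and Fyco1, an autophagosome transport gene (0.20). Nrbp2 was at 3.49 RPKM (miR-302d-3p) and 3.89 RPKM (miR-373-3p) in the seed pair and at 7.37 to 9.71 RPKM in the other miRNA libraries, against 9.28 RPKM after cel-miR-67.

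The rest of the pathway was described with a list of 93 further genes in 6 groups, of which 90 were in the table and 81 averaged 1 RPKM or more. Of the 486 gene and library pairs, 27 (5.56%) were at least 1.5-fold lower and 18 (3.70%) at least 1.5-fold higher, beside 5.79% and 5.09% over all genes. Among 11 measured genes for MOB adaptors, NDR regulators and paralogues, 0 of 66 pairs were lower and 1 was higher, that of Stk24, a kinase gene of the MST family, after miR-33b* (0.67). Stk24 was between 0.34 and 0.67 in all 6 libraries, at 16.8 to 21.4 RPKM against 13.1 RPKM.

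Upstream kinases (12 genes) had 0 of 72 pairs lower and 3 higher, all of them Map4k1, a kinase gene known from blood cells, at 0.205 to 2.89 RPKM against 0.394 RPKM. Its log2 differences were 1.48 with miR-302d-3p, 1.25 with miR-373-3p and 0.90 with miR-33b*, and -0.21 to -0.07 in the other libraries. In those other libraries and in the control Map4k1 was below 1 RPKM. It passed the minimum mean only through the libraries where it was high, so these 3 pairs say nothing about the group. Polarity, junction and adhesion genes (17) had 2 of 102 pairs lower and 1 higher, with the cell polarity gene Llgl2 lowest at -0.81 after miR-199a-3p. Genes of STRIPAK, a phosphatase complex that removes phosphate from MST kinases, had 3 of 78 pairs lower and 3 higher over 13 genes. Ppp2r1a, its phosphatase scaffold subunit, was at -0.83 after miR-1825 and between -0.26 and 0.14 otherwise.

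Genes for YAP, TAZ, the TEAD factors and their turnover (13) had 2 of 78 pairs lower and 4 higher. The lower pairs were Vgll3, a TEAD cofactor gene, at -0.97 after miR-33b* and -0.94 after miR-1825. YAP target genes (15) had 20 of 90 pairs lower (22.2%) and 6 higher (6.67%), beside 5.79% and 5.09% of pairs over all genes. Pairs of the same gene share its control value, so they are not separate observations. Ankrd1, a cardiac ankyrin repeat gene, was lower past the limit in 5 libraries, all but miR-590-3p, at 1052 to 2043 RPKM against 2753 RPKM. Ctgf, a matrix signalling gene, was at -1.14 with miR-302d-3p, -1.09 with miR-373-3p and -0.93 with miR-33b*. Tgfb2, a growth factor gene, was at -1.36 with miR-302d-3p, -1.05 with miR-373-3p and -0.87 with miR-199a-3p. All 6 higher pairs were Birc5, which encodes the mitotic protein survivin, at 0.80 to 1.69. The median of the target list was lowest with miR-33b* (-0.43) and miR-302d-3p (-0.41), then -0.32 with miR-1825, -0.28 with miR-373-3p, -0.11 with miR-590-3p and -0.07 with miR-199a-3p. Beside these, summed fibroblast, cardiomyocyte, endothelial and epicardial markers were below the control in all 6 libraries at the deposited scaling, though single markers differed in direction. Summed smooth muscle markers were above it in all 6, and macrophage and leukocyte markers below it in all but that of miR-373-3p. The part of these cell types in the target values was not tested.

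**Figure D5:**
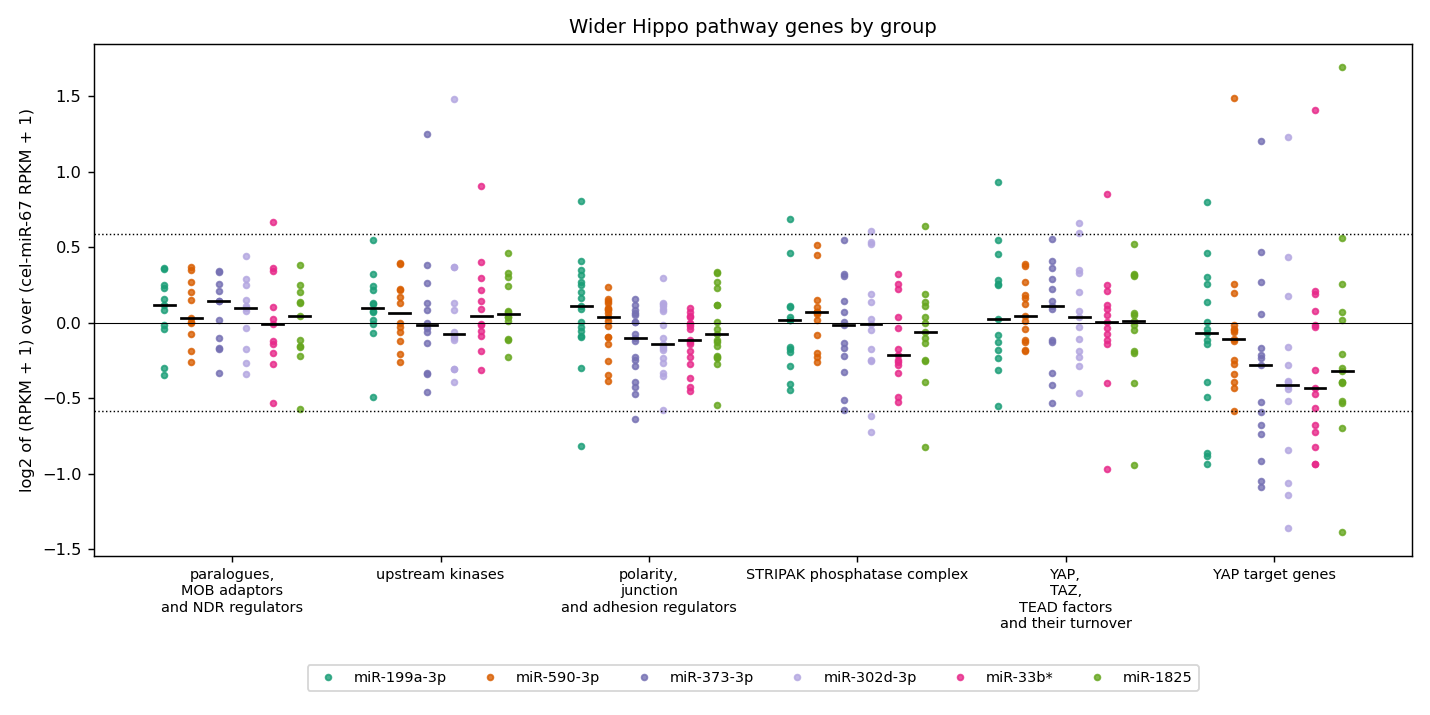
Log2 difference from the cel-miR-67 library (vertical axis) of the 81 further pathway genes that passed the minimum of 1 RPKM, by group and miRNA; each point is 1 gene in 1 library, black bars are medians and dotted lines mark the limit of 1.5-fold. YAP target genes hold 20 of the 27 points below the lower line, and the 6 points of Birc5 lie above the upper line.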

How the data were processed

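Single libraries of rat cardiomyocytes, 1 per miRNA, were compared. The authors deposited RPKM values for 17141 genes. The submitters' processing notes name STAR 2.7, edgeR and Rnor_6.0 without saying what each was used for. Nothing on annotation, counter, strand setting or filters was stated (not given in the sources used here). All 7 files of single libraries equalled the series table.

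Reads were recovered from the RPKM, which scale whole reads by length and library size. Lengths and sizes giving whole reads within 0.002 reads (up to 0.05 for genes with many reads) were found for 100% of genes, and the step was checked on simulated data. The listed reads were 85.5% to 109.5% of the sizes found, so these carry a further factor per library.

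A minimum mean of 1 RPKM left 12330 genes. Differences used a pseudocount of 1 RPKM and counts a limit of 1.5-fold. Python 3.11.15, NumPy 2.4.6, pandas 2.3.3, SciPy 1.17.1 and matplotlib 3.10.9 were used. No test across libraries was possible with 1 library per group.

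Members and lists were chosen with earlier results of these data known; the lists were written from general knowledge. Named beyond the members were list genes at least 1.5-fold the same way in 3 or more libraries (at most 15), the gene of largest difference in each group, and the 3 genes nearest to Stk38l and to Lats2. Alternatives were other pseudocounts, scalings, a different denominator, a 2-fold limit and no filter.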

Additional observations from a re-analysis of the deposited data

How the results depend on the processing

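The counts of members past 1.5-fold, 6 pairs lower and 0 higher, were the same with values scaled to a median difference of 0 or, chosen after seeing the data, to reads of nuclear genes, and with a pseudocount of 5 RPKM; with 0.1 RPKM 8 were lower, the added pairs being Lats1 after miR-33b* and Nf2 after miR-373-3p. Scaled to all listed reads, 4 pairs were higher, and this scaling moved the median of all genes by up to 0.31 (miR-199a-3p). Mitochondrial genes held 27.7% of listed reads with miR-199a-3p, 30.6% to 41.4% with the other miRNAs and 41.0% with cel-miR-67. Scaled to reads of nuclear genes, the median of all genes with miR-199a-3p was 0.05. No member was 1.5-fold lower in all 6 libraries under any of these scalings, pseudocounts or denominators. Stk38l stayed below and Stk38 above the control in all 6 libraries under every pseudocount and scaling. With the other 5 miRNA libraries, averaged, as denominator, 2 member pairs were lower, both of Lats2 in the seed pair, and 1 was higher; Stk38l was below it in 3 libraries and turned to 0.043 after miR-33b*. A gene's 6 values sum to 0 against this denominator, so it cannot show a gene low in all 6 libraries. For the wider list, pairs lower and higher were 14 and 9 with that denominator, and 6 and 7 at a 2-fold limit. Pairs higher were 28 with a pseudocount of 0.1 RPKM, 6 with 5 RPKM and 48 when scaled to all listed reads. The cause of these shifts was not tested. Shares of all genes past the limit were computed at the main setting only. Whether the counts at the other settings differ from those of all genes is therefore not shown. No paired analysis was possible because each miRNA has 1 library.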

Other observations

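In the wider pathway list 12 of 81 genes (14.8%) lay below the cel-miR-67 library in all 6 miRNA libraries and 13 (16.0%) above it, beside 13.4% and 13.9% of all genes. The following were picked after their values were seen. Mob2, whose product binds NDR kinases, was at -0.34 to -0.14 on the log2 scale (12.3 to 14.2 RPKM against 15.8 RPKM). Wwc1, which encodes KIBRA, was at 0.10 to 0.36, and Yap1 at 0.25 to 0.45, both above the control in all 6 libraries. Wwc1 was near the minimum of 1 RPKM, at 1.18 to 1.63 RPKM against 1.04 RPKM. Yap1 was at 14.6 to 16.9 RPKM against 12.1 RPKM.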
